A study of Homo sapiens with 6 samples.

Results

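The genes described here are 7 caspases, CASP1, CASP2, CASP4, CASP6, CASP8, CASP9 and CASP10, together with APAF1. They were taken as a family and found by gene symbol in the count table of THP-1 cells after NFIC knockdown, in which these 8 genes are among 33981. THP-1 is a human monocytic line established from an acute myeloid leukemia, and all samples come from this 1 line. The control group carried a scrambled shRNA (3 samples, named C1, C3 and C4) and the knockdown group an shRNA against NFIC (3 samples, N1, N2 and N3), both delivered by a lentiviral vector that also encodes GFP, and bulk mRNA of sorted GFP+ cells was sequenced 4 days after infection. The figure legends of the study name the knockdown hairpin for these samples as sh494, while its methods call the control vector GFP only, and the name in the sample labels is kept here. Nothing in the labels says whether the 3 samples of a group came from separate infections, so the p-values measure the spread between these samples, which may be technical.

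Caspases are cysteine proteases that are made as inactive precursors and cut their substrates after aspartate. In the intrinsic pathway, cytochrome c released from mitochondria binds APAF1, which assembles into the apoptosome and activates the initiator CASP9. In the extrinsic pathway, ligand-bound death receptors recruit the adaptor FADD, which gathers the initiators CASP8 and CASP10. Both routes lead to the executioner caspases, among which CASP6 cuts nuclear lamins. CASP2 is activated on a platform formed by PIDD1 and CRADD. CASP1 and CASP4 are the inflammatory caspases of monocytes: CASP1 matures interleukin 1 beta and interleukin 18 in inflammasomes, and CASP4 senses cytosolic lipopolysaccharide. Transcript levels measure neither the amount of these precursor proteins nor caspase activity.

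The target site of sh494 is shown because it is the stretch of NFIC that the hairpin matches. Promoters of members that changed in opposite directions are shown because the knocked-down factor binds DNA at NFI sites. The target of sh494, taken from the list of hairpins of the study, was found without mismatch in 8 of the 11 annotated NFIC transcripts. The closest stretch of the 21 bases in transcripts of the 8 genes had 6 mismatches in CASP4 and 7 in CASP1, CASP2 and CASP10. It had 8 in APAF1, CASP6 and CASP8, and 9 in CASP9. Matches to a part of the hairpin and transcripts of other genes were not searched. An effect of the hairpin on these transcripts was not tested.
sh494 target in NFIC: gatggacaagtcaccattcaa
RefSeq promoter windows of GRCh38.p14, from 250 bases before to 50 bases after an annotated start, were present for 6 of the 8 genes with 10 starts in all. They were searched on both strands for TTGGC, the half-site of NFI factors, and for the full palindrome, in which TTGGC and its reverse complement GCCAA are separated by any 5 bases, so that each palindrome also holds half-sites. A half-site was present in 5 of these 10 windows, and 45.6% of all 35116 promoter windows held at least 1. The full palindrome was in none of the 10 and in 0.0285% of all windows. The 250 bases before 1 start each of CASP9, CASP4 and CASP8 follow, read in the direction of the gene, with a half-site in capitals. In CASP9 it begins 230 bases before the start (chr1:15524216-15524465, minus strand), in CASP4 it lies on the opposite strand from 127 bases before the start (chr11:104968575-104968824, minus strand), and the letters were not found in the CASP8 stretch (chr2:201233213-201233462, plus strand). The same CASP9 window holds a further half-site from 2 bases after the start, outside the printed stretch. At another CASP9 start a half-site begins 217 bases before it.
CASP9: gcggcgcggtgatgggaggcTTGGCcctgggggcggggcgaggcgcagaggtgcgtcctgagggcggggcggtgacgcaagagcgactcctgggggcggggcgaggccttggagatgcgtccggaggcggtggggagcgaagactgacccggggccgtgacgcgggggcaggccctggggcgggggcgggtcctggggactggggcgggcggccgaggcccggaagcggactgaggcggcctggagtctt
CASP4: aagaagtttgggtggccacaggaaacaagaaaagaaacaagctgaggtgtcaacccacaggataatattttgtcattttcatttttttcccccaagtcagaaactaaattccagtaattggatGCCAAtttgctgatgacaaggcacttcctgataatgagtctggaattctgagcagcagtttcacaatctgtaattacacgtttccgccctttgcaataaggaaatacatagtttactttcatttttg
CASP8: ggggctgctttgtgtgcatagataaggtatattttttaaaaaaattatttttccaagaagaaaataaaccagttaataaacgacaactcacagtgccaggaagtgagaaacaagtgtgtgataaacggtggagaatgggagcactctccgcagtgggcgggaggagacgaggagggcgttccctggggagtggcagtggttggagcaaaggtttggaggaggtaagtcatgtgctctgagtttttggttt
A match of 5 letters is a description of the sequence and not a site of binding.

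Total counts lay between 20369543 and 24809720 per sample, at which 3 counts correspond to between 0.121 and 0.147 CPM, which are counts scaled to the size of the library. The targeted transcript NFIC had 911, 1019 and 904 counts in C1, C3 and C4 and 399, 518 and 493 in N1, N2 and N3. Its log2 fold change was thus -0.99 (adjusted p = 3.73e-09, edgeR, with a standard error of 0.072). When principal components were taken of the log2 CPM values, C3 and N3 lay at -18.0 and -20.5 on the second component (7.37% of the variance), whereas the other 4 samples lay between 4.63 and 15.8. Values without both samples are therefore given for each member that changed. Of 8 monocytic markers 3 were higher (LYZ, ITGAM and CD14) and 3 lower (CD68, CSF1R and CD33) with NFIC shRNA. Their summed level was 1293 to 1419 CPM in the scrambled samples and 1491 to 1671 CPM in the NFIC shRNA samples. LYZ held the largest part of this sum, with a mean of 572 CPM with scrambled and 940 CPM with NFIC shRNA. By contrast, mean CPM went from 261 to 130 for CD68, from 219 to 146 for CSF1R and from 33.9 to 17.4 for CD33. The sum therefore does not give the direction of the markers as a set. The defining markers of T cells (CD3D) and erythroid cells (HBB, ALAS2) did not exceed 3 counts in any sample, and the summed levels were 0.122 to 0.420 against 0.129 to 0.347 CPM for T cell markers and at most 0.139 against 0.173 CPM for erythroid markers. Markers of other kinds of cells were low and differed between the groups: megakaryocyte markers summed to 7.72 to 8.13 against 2.57 to 2.89 CPM, epithelial or packaging cell markers to 4.90 to 5.69 against 0.953 to 2.03 CPM, and B cell markers to at least 4.11 against at most 3.29 CPM, with PF4, KRT19 and MS4A1 at or near 0. Their part in the results was not tested. In bulk samples fewer cells of a kind and less RNA per cell cannot be told apart.

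With NFIC shRNA, 3 of the 8 genes rose, namely CASP8, CASP9 and APAF1, and 2 fell, CASP4 and CASP2. CASP1, CASP6 and CASP10 did not pass an adjusted p of 0.05 in edgeR's quasi-likelihood test. All 8 genes were well enough counted to be tested. These 5 of 8 genes have to be read against the whole transcriptome, in which 59.9% of the 19182 genes tested passed the same threshold, 29.6% of them higher and 30.3% lower (percentages of the genes tested). The changes were also moderate in size. The median absolute log2 fold change of the 8 genes was 0.32, against 0.37 over all genes tested, and their median signed value was -0.056, against -0.011. The CPM values of the groups did not overlap for 6 of the 8 genes, and for 65.2% of all genes tested.

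**Figure D1:**
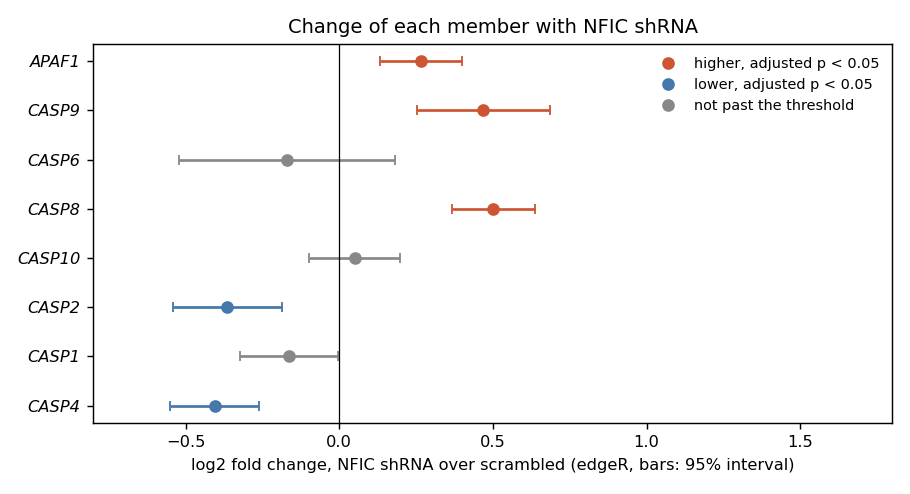
Log2 fold change of each caspase and APAF1, NFIC shRNA over scrambled, on the horizontal axis, from edgeR with 3 samples per group. Bars are 95% intervals and colours give the call at an adjusted p of 0.05: CASP8, CASP9 and APAF1 lie above 0, CASP2 and CASP4 below, and the intervals of CASP6 and CASP10 include 0.

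The levels of the genes were compared with each other per gene length, by the FPKM that the authors deposited. In the scrambled samples APAF1 had the highest level, 9.51 ± 0.506 FPKM (SD, n = 3), followed by CASP8 at 7.65 ± 0.542, CASP1 at 7.37 ± 0.394, CASP4 at 6.66 ± 0.267, CASP2 at 4.89 ± 0.650, CASP10 at 3.49 ± 0.102, CASP6 at 2.41 ± 0.249 and CASP9 at 1.68 ± 0.112 FPKM. The ranges of CASP8 and CASP1 overlapped, so that these neighbours in the order do not differ beyond their spread. All other neighbours were separated. The highest level was 5.65 times the lowest. By this measure APAF1, the scaffold of the apoptosome, was the highest of these genes and CASP9, the caspase that it activates, the lowest. The deposited gene lengths were 7908 bases for APAF1 and 6665 for CASP4, where the annotated exons hold 7759 and 6665 bases. The order depends on these lengths, and the lengths of the transcripts present in the cells were not measured.

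With NFIC shRNA the highest level was 5.34 times the lowest. APAF1 was at 11.6 ± 1.00 FPKM and CASP8 at 10.9 ± 0.618, and their ranges now overlapped. CASP1 and CASP8, which could not be separated in the scrambled samples, stood apart, with CASP1 at 6.66 ± 0.388 FPKM. CASP10 at 3.66 ± 0.104 overlapped CASP2 at 3.85 ± 0.143, and CASP6 at 2.16 ± 0.470 overlapped CASP9 at 2.36 ± 0.113 FPKM. The last pair had changed places in the order of means, without a separation of their ranges.

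**Figure D2:**
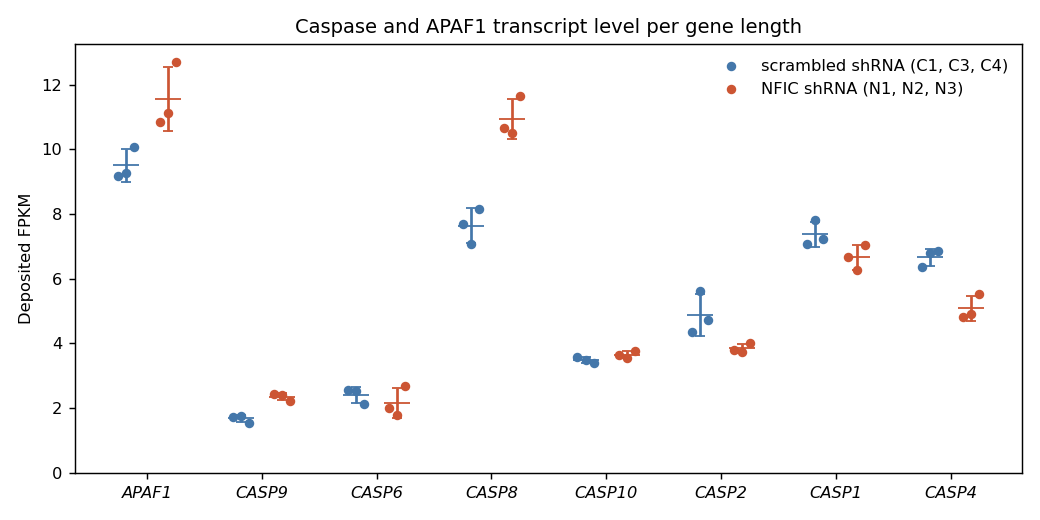
Deposited FPKM (vertical axis, per gene length) of each gene in each of the 6 samples. Points are samples, horizontal marks are means and bars are 1 SD (n = 3 per group): CASP8 and APAF1 are the highest in the NFIC shRNA samples, and C3 is the highest of the scrambled samples for CASP2.

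Of the intrinsic pathway, both members rose. APAF1 (ENSG00000120868, chromosome 12 of GRCh38, 98645290 to 98735433, plus strand) had 1594, 1823 and 1724 counts in C1, C3 and C4 and 1782, 2045 and 2304 in N1, N2 and N3. Scaled to library size these are 73.7, 74.1 and 80.5 CPM against 86.4, 88.1 and 99.9 CPM, and N3 stood highest. The level was 20.3% higher with NFIC shRNA (log2 fold change 0.27, standard error 0.063, adjusted p = 0.00156, edgeR). Without C3 and N3 the log2 fold change was 0.18 (adjusted p = 0.00525, edgeR). APAF1 shares 750 exon bases with ANKS1B on the opposite strand. The library kit in the labels does not mark strand and the strand setting of the counting is not given in the sources used here, so reads from this stretch cannot be told apart. ANKS1B had 220, 231 and 219 counts against 226, 256 and 316, a log2 fold change of 0.26 (adjusted p = 0.0484, edgeR), or 0.11 without C3 and N3 (adjusted p = 0.464, edgeR). The ANKS1B call was also lost without C1, C3, C4 or N3 alone, in DESeq2 (adjusted p = 0.109) and with upper-quartile normalization (adjusted p = 0.115, edgeR). It was lost as well without a filter on low counts and with at least 10 counts in every sample (adjusted p = 0.0537 and 0.0594, edgeR). The part of either transcript in the other's value was not tested.

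CASP9 (ENSG00000132906, chromosome 1, 15490832 to 15526534, minus strand) had 201, 231 and 177 counts in C1, C3 and C4 against 268, 294 and 270 in N1, N2 and N3. The groups did not overlap, at 8.27 to 9.39 CPM against 11.7 to 13.0 CPM. Its transcript rose by 38.4% (log2 fold change 0.47, standard error 0.10, adjusted p = 7.79e-04, edgeR). Without C3 and N3 the log2 fold change was 0.55 (adjusted p = 1.87e-04, edgeR). CASP9 shares 101 exon bases with CELA2B, which had at most 9 counts in any sample. CASP9 counts were 0.126, 0.127 and 0.103 of the APAF1 counts in C1, C3 and C4, and 0.150, 0.144 and 0.117 in N1, N2 and N3, so that this ratio, which needs no scaling between samples, overlapped between the groups.

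The death receptor initiators CASP8 and CASP10 lie next to each other on chromosome 2, in the same direction as CFLAR, the gene of the caspase-like inhibitor FLIP. CASP8 (ENSG00000064012, 201233443 to 201361836, plus strand) had the smallest adjusted p of the family. It had 1223, 1278 and 1278 counts in C1, C3 and C4 and 1604, 1769 and 1934 in N1, N2 and N3, or 56.5, 51.9 and 59.7 CPM against 77.8, 76.2 and 83.8 CPM. The lowest NFIC shRNA sample lay well above the highest scrambled sample. The increase was 41.6% (log2 fold change 0.50, 95% interval 0.37 to 0.64, standard error 0.064, adjusted p = 2.92e-06, edgeR), and 0.40 on the log2 scale without C3 and N3 (adjusted p = 6.60e-08, edgeR). A larger absolute change was seen for 37.4% of all genes tested. The 3 protein-coding genes whose log2 CPM followed CASP8 most closely over the 6 samples were ZRANB1, DMXL1 and DNAJB6, with Pearson's r of 0.999, 0.998 and 0.997. As many as 1696 protein-coding genes exceeded an r of 0.95 with CASP8, and the 6 points share the difference between the groups. CASP8 shares 343 exon bases with ENSG00000289698, a long noncoding RNA on the same strand that has no entry in the counts used here. Of the 50-base stretches of CASP8 transcripts 3.24% are also found in it. FLACC1, which lies within CASP8 on the opposite strand and shares 0 exon bases with it, had 9 to 30 counts per sample.

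CASP10 (ENSG00000003400, 201182872 to 201229428, plus strand), the closest relative of CASP8 in the family, had 598, 661 and 555 counts in C1, C3 and C4 against 576, 627 and 654 in N1, N2 and N3. In CPM the groups overlapped, with 25.9 to 27.6 against 27.0 to 28.3. Its log2 fold change was 0.051 with a 95% interval from -0.098 to 0.20 (adjusted p = 0.553, edgeR), and the sign was negative, at -0.0064, with upper-quartile normalization. The interval therefore leaves room for a change between 0.934 and 1.15 fold. CASP8 counts were 2.05, 1.93 and 2.30 times the CASP10 counts in C1, C3 and C4 and 2.78, 2.82 and 2.96 times in N1, N2 and N3. This ratio did not overlap between the groups, and in CPM the groups did not overlap for 65.2% of all genes tested. How often ratios of other gene pairs do not overlap was not computed. The inhibitor CFLAR, from 201116154 to 201176687, rose as well, with a log2 fold change of 0.31 (adjusted p = 1.08e-04, edgeR). The ratio of CASP8 to CFLAR counts was 0.406, 0.421 and 0.436 in C1, C3 and C4 against 0.462, 0.480 and 0.496 in N1, N2 and N3, again without overlap.

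**Figure D3:**
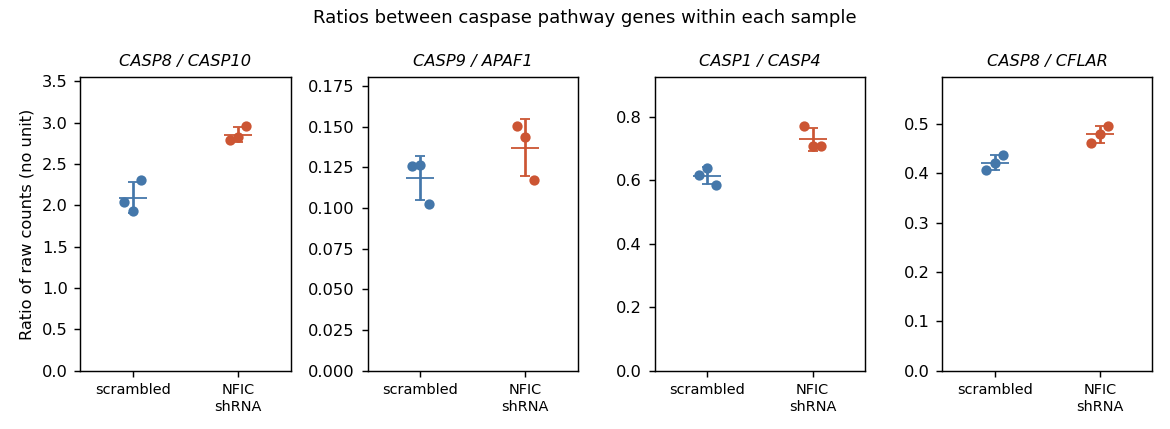
Ratios of raw counts between gene pairs within each sample (vertical axes, no unit, each starting at 0) for scrambled and NFIC shRNA samples. Points are samples, marks are means and bars 1 SD (n = 3 per group): CASP8 to CASP10, CASP1 to CASP4 and CASP8 to CFLAR do not overlap between the groups, whereas CASP9 to APAF1 does. For single genes the CPM of the groups did not overlap in 65.2% of those tested, and the share over other gene pairs was not computed.

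CASP2 (ENSG00000106144, chromosome 7, 143288215 to 143307696, plus strand) had 767, 1122 and 817 counts in C1, C3 and C4 and 633, 698 and 738 in N1, N2 and N3. The scrambled samples spread from 35.5 CPM in C1 to 45.6 CPM in C3, while the NFIC shRNA samples lay close together at 30.1 to 32.0 CPM. CASP2 fell by 22.3% (log2 fold change -0.36, standard error 0.084, adjusted p = 0.00127, edgeR). When C3, its highest sample, was left out, CASP2 had a log2 fold change of -0.26 (adjusted p = 0.00799, edgeR), and without C3 and N3 it was -0.28 (adjusted p = 0.00134, edgeR). Its platform gene PIDD1 went the other way, with a log2 fold change of 0.71 (adjusted p = 2.69e-07, edgeR). CRADD, the adaptor between them, had 0.15 (adjusted p = 0.310, edgeR).

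The inflammatory caspases form a cluster on chromosome 11. CASP4 (ENSG00000196954, 104942866 to 104969366, minus strand) had 931, 1126 and 987 counts in C1, C3 and C4 against 666, 763 and 844 in N1, N2 and N3, or 43.0 to 46.1 CPM against 32.3 to 36.6 CPM. It fell by 24.5% (log2 fold change -0.41, standard error 0.069, adjusted p = 6.81e-05, edgeR) and by 0.45 on the log2 scale without C3 and N3 (adjusted p = 4.68e-07, edgeR). CASP1 (ENSG00000137752, 105025397 to 105035250, minus strand) had 574, 720 and 578 counts against 513, 539 and 597. All 3 NFIC shRNA samples, at 23.2 to 25.9 CPM, lay below the 3 scrambled samples, at 26.5 to 29.3 CPM. Its log2 fold change was -0.16 (95% interval -0.32 to -0.0032, adjusted p = 0.0731, edgeR), which did not pass the threshold. It did pass without N3 (-0.20, adjusted p = 0.0452, edgeR) and with upper-quartile normalization (-0.22, adjusted p = 0.0168, edgeR). Over 16 alternatives its adjusted p was between 0.0168 and 0.240.

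CASP1 counts were 0.617, 0.639 and 0.586 times the CASP4 counts in C1, C3 and C4 and 0.770, 0.706 and 0.707 times in N1, N2 and N3. The groups did not overlap in this ratio, and in CPM they did not overlap for 65.2% of all genes tested. Between CASP1 and CASP4 lies CASP5, a further inflammatory caspase, with 2, 0 and 1 counts in the scrambled samples and 0 in each NFIC shRNA sample. On the far side of CASP1 lies CARD16, which encodes a CARD-only protein related to the prodomain of CASP1. CARD16 rose by 0.35 on the log2 scale (adjusted p = 0.0169, edgeR), a call that was lost without C4 (adjusted p = 0.0629, edgeR), without N2 (adjusted p = 0.0780, edgeR), in DESeq2 (adjusted p = 0.0507) and with a block by the numbers in sample names (adjusted p = 0.145, edgeR). Of all 50-base stretches in CASP1 transcripts 4.48% are also found in CARD16 transcripts, so that reads from these stretches can be assigned to either gene or to neither.

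CASP6 (ENSG00000138794, chromosome 4, 109688622 to 109703583, minus strand) had the fewest counts, 110, 122 and 89 in C1, C3 and C4 and 81, 81 and 120 in N1, N2 and N3. N3 lay above all scrambled samples in CPM and N1 and N2 below them, so the groups overlapped. The log2 fold change was -0.17 with a 95% interval from -0.52 to 0.18 (adjusted p = 0.393, edgeR). It was -0.35 without N3 (adjusted p = 0.0900, edgeR) and -0.044 without N2 (adjusted p = 0.846, edgeR). The interval corresponds to a change between 0.697 and 1.13 fold. CASP6 shares 98 exon bases with MCUB on the opposite strand, which had 18 to 41 counts and a log2 fold change of 0.69 (adjusted p = 0.0336, edgeR). The MCUB call was lost without C1, C3, N1 or N3, with adjusted p between 0.0835 and 0.110 in edgeR. It was also lost without C3 and N3 together (adjusted p = 0.182, edgeR) and in DESeq2 (adjusted p = 0.129).

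Around the caspases, 49 further genes of their pathways had been listed by role, of which 45 were in the table and 41 were tested. With NFIC shRNA 23 rose and 6 fell, or 70.7% of those tested, where 59.9% of all genes tested passed, 29.6% higher and 30.3% lower. Their median log2 fold change was 0.23, against -0.011 over all genes. With upper-quartile normalization 21 were higher and 10 lower. The list had been drawn up with earlier results of these samples known, so that it is not independent evidence of a direction. Of 12 genes tested for death receptors, their ligands and adaptors, 9 rose, among them the inhibitor gene CFLAR, and 0 fell. The median log2 fold change of the 12 was 0.32, where 29.6% of all genes were higher and 30.3% lower. With upper-quartile normalization 8 were higher and 1 lower, and without C4 7 were higher and 0 lower. TNFSF10, the death ligand TRAIL, had 165, 225 and 149 counts in C1, C3 and C4 against 527, 500 and 704 in N1, N2 and N3 (log2 fold change 1.70, standard error 0.13, adjusted p = 2.79e-08, edgeR). TNFRSF1A, the main receptor of tumor necrosis factor, rose by 0.49 on the log2 scale (adjusted p = 2.57e-07, edgeR). The TRAIL receptors TNFRSF10A and TNFRSF10B had -0.20 and 0.0060, with adjusted p of 0.134 and 0.953 (edgeR). TNFRSF25, another receptor of the list, had -0.20 (adjusted p = 0.0917, edgeR). FAS, FADD and RIPK1, which were picked out after their values were seen, rose with log2 fold changes of 1.08, 0.32 and 0.42.

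**Figure D4:**
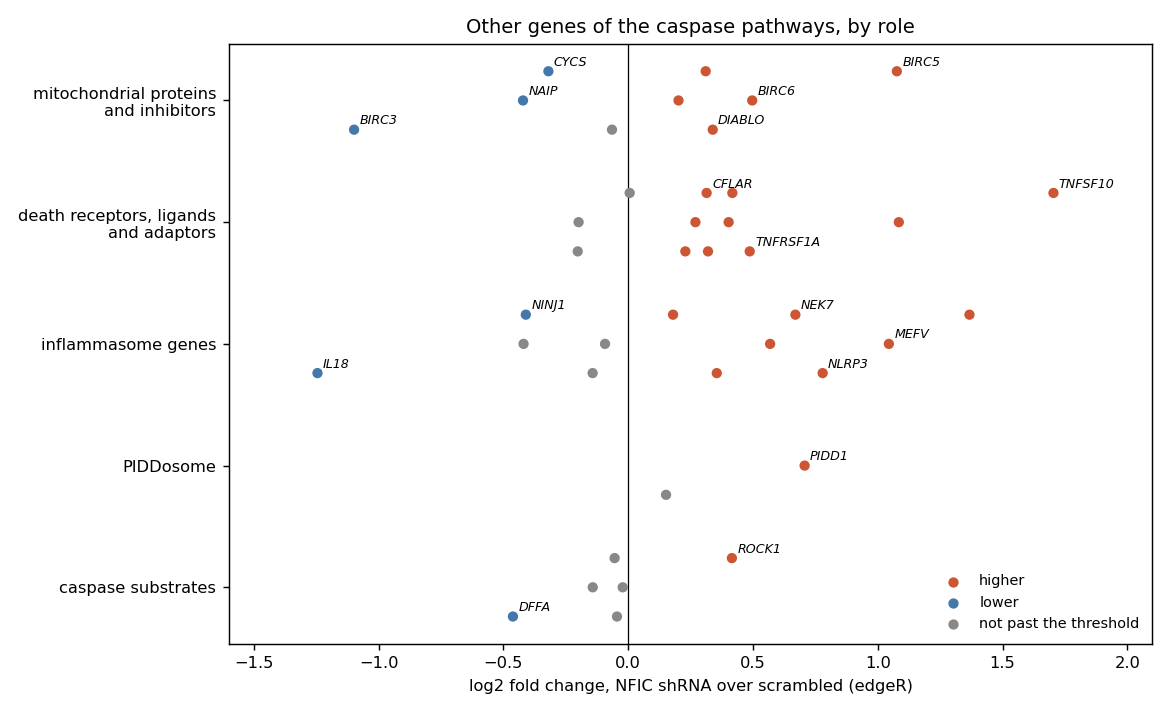
Log2 fold change, NFIC shRNA over scrambled (horizontal axis, edgeR), of the 41 tested pathway genes, grouped by role (vertical axis, with points set apart only for legibility). Colours give the call at an adjusted p of 0.05: 9 of 12 genes of death receptors, their ligands and adaptors are higher and none is lower, and TNFSF10 lies farthest to the right.

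Among the mitochondrial proteins and the inhibitors of caspases, 5 of 9 rose and 3 fell, where 59.9% of all genes passed in either direction. CYCS, which encodes cytochrome c, fell by 0.32 on the log2 scale (adjusted p = 5.41e-05, edgeR), while DIABLO, whose protein relieves inhibition by XIAP, rose by 0.34 (adjusted p = 3.16e-04, edgeR). The inhibitor genes moved in both directions. BIRC5, which encodes survivin and is also a mitotic gene, was at 63.0 ± 3.05 CPM with scrambled and 133 ± 18.1 CPM with NFIC shRNA (SD, n = 3). It rose by 1.08 on the log2 scale (adjusted p = 4.63e-08, edgeR). BIRC6 had 0.50 (adjusted p = 2.12e-06, edgeR) and XIAP, named after its value was seen, 0.20 (adjusted p = 0.0224, edgeR). The XIAP call was lost without C3 or C4 (adjusted p = 0.0941 and 0.0833, edgeR), without C3 and N3 together (adjusted p = 0.0865, edgeR) and with upper-quartile normalization (adjusted p = 0.0951, edgeR). NAIP had -0.42 (adjusted p = 0.0167, edgeR). Its call was lost without C1, C4 or N1 (adjusted p up to 0.0927, edgeR) and in DESeq2 (adjusted p = 0.0571). BIRC3, with 6 to 26 counts per sample, had -1.10 (adjusted p = 0.0368, edgeR). Without C1, its highest sample, it had -0.60 (adjusted p = 0.289, edgeR). The call was also lost without N1, N2 or N3 (adjusted p up to 0.104, edgeR), in DESeq2 (adjusted p = 0.142), in limma (adjusted p = 0.0574) and with the replicate block (adjusted p = 0.0545, edgeR).

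Of 12 inflammasome genes tested 7 rose and 2 fell, or 7 and 4 with upper-quartile normalization, where 29.6% of all genes were higher and 30.3% lower. MEFV, which encodes the sensor pyrin, had 446, 448 and 449 counts in C1, C3 and C4 against 853, 933 and 959 in N1, N2 and N3 (log2 fold change 1.04, adjusted p = 2.75e-09, edgeR). The sensor NLRP3 and its partner NEK7 rose by 0.78 and 0.67 on the log2 scale (adjusted p = 4.06e-09 and 1.29e-08, edgeR). The adaptor gene PYCARD had -0.093 (adjusted p = 0.210, edgeR). The substrates of CASP1 differed in direction: IL18, at 19.3 ± 1.70 CPM with scrambled and 8.14 ± 1.09 CPM with NFIC shRNA (SD, n = 3), fell by 1.24 on the log2 scale (adjusted p = 3.63e-08, edgeR), whereas IL1B, with 12 to 28 counts in the scrambled samples and 50 to 54 in the NFIC shRNA samples, had a log2 fold change of 1.37 (adjusted p = 3.03e-04, edgeR). NINJ1, needed for membrane rupture at the end of lytic death, fell by 0.41 (adjusted p = 0.00152, edgeR). GSDMD, the pore protein that inflammatory caspases cut, had -0.14 (adjusted p = 0.153, edgeR). PYCARD, IL1B and GSDMD were named after their values were seen.

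Of 6 genes listed as caspase substrates of the dying cell, which include the nuclease gene DFFB beside that of its cleaved inhibitor DFFA, 1 rose and 1 fell, where 59.9% of all genes passed in either direction. ROCK1, a kinase of membrane blebbing, rose by 0.42 on the log2 scale (adjusted p = 1.83e-06, edgeR). DFFA fell by 0.46 (adjusted p = 5.38e-06, edgeR). PARP1, also named after its value was seen, had 7343, 10118 and 7298 counts in C1, C3 and C4 against 6635, 7301 and 8141 in N1, N2 and N3. Its groups overlapped, and the log2 fold change was -0.14 (adjusted p = 0.0961, edgeR).

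The calls of the 8 genes were compared over 16 alternatives, which changed the normalization, the tool, the filter, the samples or the blocking. CASP8, CASP9 and APAF1 were higher and CASP4 and CASP2 lower with an adjusted p under 0.05 in all 16. CASP6 and CASP10 passed in none of them, and CASP1 passed in 2. The log2 fold change of CASP8 ranged from 0.40 to 0.58, and that of CASP4 from -0.46 to -0.37. The range of APAF1, from 0.18 to 0.33, was the widest in proportion to its size among the 5 genes that changed.

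**Figure D5:**
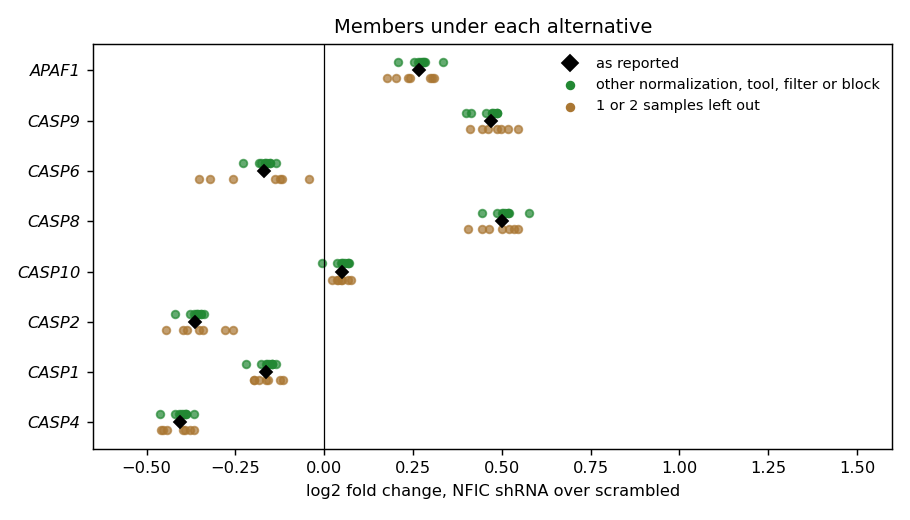
Log2 fold change of each gene, NFIC shRNA over scrambled (horizontal axis), as reported (diamonds) and under 16 alternatives, split into fits that left out 1 or 2 samples and all others. CASP8, CASP9 and APAF1 stay above 0 and CASP2 and CASP4 below, while CASP10 reaches -0.0064 with upper-quartile normalization.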

How the data were processed

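THP-1 cells with scrambled or NFIC shRNA (3 samples each) were profiled by bulk mRNA sequencing. The authors trimmed the reads with Trim Galore, mapped them with STAR to GRCh38 and assigned them with featureCounts using Ensembl release 96, and deposited the raw counts per gene. They also deposited a signal, the counts divided by a DESeq2 size factor, and FPKM computed from it by the authors. The authors' own comparison (a log2 fold change, its error and test score, and p-value columns) is in the deposited table and was not used.

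From the counts, edgeR 4.0.16 in R 4.3.3 was run across all genes with its filter on low counts, TMM scaling, robust dispersions and the quasi-likelihood test, with no block. Benjamini-Hochberg adjustment covered all 19182 genes tested, and the threshold was 0.05. CPM values carry the TMM scaling, and intervals are 95% intervals of the log2 fold change. Limits from 3 counts cover counting error only. Alternatives were run with limma 3.58.1 (pseudocount 1) and DESeq2 1.42.0 among others. Positions, exon overlaps and shared 50-base stretches come from GENCODE release 44 on GRCh38.

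The genes and pathway lists were chosen with earlier results of these data known. Some pathway genes are not reported here and were left out of the list and its counts. Named genes are the 8 members, NFIC, up to 3 higher and 3 lower genes of each role with the smallest adjusted p, genes overlapping a member, and the 3 genes most like the member with the smallest adjusted p. TNFRSF10A, TNFRSF10B, TNFRSF25, CRADD, CASP5 and CARD16, which this rule does not give, were chosen with their values in view. Leaving out C3 and N3 together and blocking by the numbers in sample names were added after seeing the data.

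No pair of samples within a group agreed within sampling noise (chi-square per degree of freedom between 1.94 and 7.30).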

Additional observations from a re-analysis of the deposited data

How the results depend on the processing

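CASP8, CASP9, APAF1, CASP4 and CASP2 kept their direction and an adjusted p under 0.05 in all 16 alternatives. With upper-quartile normalization CASP10 had a log2 fold change of -0.0064 in place of 0.051, CASP1 passed the threshold at -0.22, and 10 pathway genes were lower in place of 6; this scaling lowered the median of all genes by 0.057. With DESeq2 and with an adjusted p under 0.01, 4 pathway genes were lower. With 1 sample removed at a time, CASP1 had log2 fold changes of -0.20 to -0.12 and passed the threshold without N3, and 4 to 8 pathway genes were lower. The cause was not tested. For the pairs of samples that share a replicate number in the labels, departures from the group mean correlated at 0.0563, -0.0862 and -0.0446 across genes. Such departures cancel out over the 3 samples of a group, so these values cannot decide whether the samples were paired. By the numbers in sample names, C1 and N1 are the first of these pairs and C3 and N3 correlated at 0.145. With the replicate number of the labels as a block, 5 of the 8 genes passed the threshold, with an adjusted p of 1.84e-05 for CASP8 in edgeR, and 10983 genes passed in all, against 11486 without the block. Under this block BIRC3 (adjusted p = 0.0545, edgeR) and ANKS1B (adjusted p = 0.0609, edgeR) lost their calls, and no other gene with a call that is named in the text did. The block by the numbers in sample names, over the 4 samples that share one, also gave 5 of the 8 genes, and there CARD16 (adjusted p = 0.145, edgeR) and XIAP (adjusted p = 0.0619, edgeR) lost their calls. The highest member level in the scrambled samples was 5.64 times the lowest with CPM per kilobase and 5.65 times with FPKM. Both use the same deposited gene lengths, so this comparison does not test the choice of length. CASP6 had 81 to 122 counts per sample and BIRC3 6 to 26, and counting error and spread between samples were not separated for them.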
